A study of Mus musculus with 16 samples.

Results

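Histone genes of the mouse fall into a large set of small genes in chromosome clusters and a small set of variant genes elsewhere. The members were taken by name from the gene annotation deposited with the series: symbols that begin with Hist1h, Hist2h, Hist3h or Hist4h (clustered genes), and symbols that begin with H2af, H3f or H1f (variant genes), each with at least 1 coding segment. This gave 81 genes, 68 clustered and 13 variant, of 20508 symbols with a coding segment. In all, 82 symbols had such a name, and the one left out was H2afy3, which has no coding segment.

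The series sequenced polyadenylated spleen RNA of untreated mice, with 16 samples that form 4 groups of 4. The groups were Wildtype of study NG66, Wildtype of study NG108, Triple KO (Zfp36-/-, TNFR1-/-, TNFR2-/-) of study NG66 and Double KO (TNFR1-/-, TNFR2-/-) of study NG66, and the labels give neither strain nor age. Both knockout groups lack the TNF receptors, and the Triple KO also lacks Zfp36, the gene for the mRNA decay protein tristetraprolin. The deposited file holds gene models on genome build mm10 and 0 columns of values for a sample, so expression was not analysed here and every number below describes gene models or their bases.

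As background, histones are the proteins that DNA is wound on in the nucleosome: H2A, H2B, H3 and H4 form its core and H1 binds the linker DNA. The clustered genes are the replication-dependent ones, switched on when a cell copies its DNA, and most of their mRNAs end just after a short hairpin that the stem-loop binding protein SLBP holds, in place of a poly(A) tail. The variant genes encode replacement histones that are made outside S phase too, and their mRNAs are mostly spliced and polyadenylated in the usual way.

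The hairpin was searched for as 16 bases with 6 Watson-Crick pairs around a loop of 4, beginning with GG within 100 bases after the stop codon. It was found in 47 of the 53 clustered genes that could be searched (88.7%, exact binomial 95% interval 77 to 95.7%), in 1 of 13 variant genes, and in 0.576% of the 19979 coding symbols searched, the members included. Counts are of symbols, and overlapping symbols can share a hairpin. The members carried 9 distinct hairpins, which are shown because their letters divide the histone types; capitals mark the paired stem, lower case the loop, and each reads 5′ to 3′ on the gene's strand.
3 H1, 10 H2A, 8 H2B and 6 H3 genes: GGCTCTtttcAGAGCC
Hist1h1t, 2 H2B and 3 H3 genes: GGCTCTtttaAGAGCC
Hist1h3g: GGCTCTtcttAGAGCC
Hist2h2ac: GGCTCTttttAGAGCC
7 H4 genes: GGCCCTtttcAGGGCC
Hist1h4i and Hist2h4: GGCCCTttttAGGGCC
Hist1h4a: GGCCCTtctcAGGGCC
Hist1h4b and Hist1h4j: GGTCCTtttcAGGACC
H2afx: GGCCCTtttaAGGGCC

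The stem separated H4 from the other clustered types. The left arm GGCTCT was present in 35 members: 4 H1, 11 H2A, 10 H2B, 10 H3 and 0 H4 genes. The arm GGCCCT was present in 11, of which 10 were H4 genes and 1 was the H2A variant H2afx, and GGTCCT in 2 H4 genes. H2afx, whose protein is phosphorylated beside DNA breaks, thus carried stem letters that among the members were otherwise seen in H4 genes alone. Outside the members, Bap1 had the same stem around another loop. The loop of H2afx, TTTA, was otherwise seen in H1, H2B and H3 genes, and its 16 bases as a whole were found in no other coding symbol searched. The loop was TTTC in 36 members, TTTA in 7, TTTT in 3, TCTC in 1 and TCTT in 1. In all 48 members the innermost pair was T with A and the loop had T at bases 1 and 3, which held for 2 of the 67 other coding symbols with a hairpin of this form.

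A site here is the hairpin, which SLBP holds, with 5 more bases on each side. Printed are 6 sites, for 1 gene of each clustered type and for H2afx. Those of Hist1h1d, Hist1h2ac, Hist1h2bb, Hist1h3a and Hist1h4a lie on chromosome 13, and that of H2afx on chromosome 9 (chr9:44335240-44335255 for its hairpin, mm10, plus strand).
Hist1h1d: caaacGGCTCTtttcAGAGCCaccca
Hist1h2ac: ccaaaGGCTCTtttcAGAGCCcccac
Hist1h2bb: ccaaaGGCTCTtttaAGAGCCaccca
Hist1h3a: ccaaaGGCTCTtttcAGAGCCacaca
Hist1h4a: ccaaaGGCCCTtctcAGGGCCgccca
H2afx: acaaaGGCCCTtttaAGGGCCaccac

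By type, the hairpin was present in 11 of 11 searched H2A genes, 10 of 10 H3 genes, 12 of 12 H4 genes, 4 of 5 H1 genes and 10 of 15 H2B genes. It began 22 to 59 bases after the stop codon in the clustered genes, with a median of 32, and at base 47 in H2afx. The other 15 clustered genes were not searched, because the transcript sequences used as the source of bases covered too little past their stop codons. The 6 searched genes in which none was found were the linker histone gene Hist1h1a, of which only 48 bases were covered, and the H2B genes Hist1h2bc, Hist1h2bp, Hist1h2bq, Hist1h2br and Hist2h2be.

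Single-exon models were the rule in the clustered genes and not in the variants. A single exon was given for 63 of 68 clustered genes (92.6%, exact interval 83.7 to 97.6%) and for 6 of 13 variant genes (46.2%, 19.2 to 74.9%), against 10.4% of all coding symbols. All 6 H1, 18 H2A, 12 H3 and 13 H4 clustered genes had 1 exon, and the 5 clustered genes with 2 exons were all H2B genes. No gene of a deposited annotation is a replicate of another, and many clustered genes are near copies, so no test was made. The intervals treat genes as independent draws, which near copies are not, and serve only to show how small the counts are.

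The 5 spliced H2B genes had their intron in 3 kinds of place, and 4 of them were among the 6 genes with no hairpin along the spliced model. In Hist1h2bc the intron of 7554 bases began 9 bases after the stop codon, so the exon that follows lies far from the coding part. In Hist1h2bp, Hist1h2bq and Hist1h2br the intron fell inside the coding part after 377 coding bases, and the second exon added 37 coding bases to Hist1h2bp and 25 to each of the others. Hist1h2bc and Hist1h2be, whose coding part lies in 1 exon, have 378 coding bases before the stop codon, so the splice of these 3 genes sits 1 base before that length is reached. The intron of Hist1h2bp itself held the common hairpin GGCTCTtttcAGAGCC, starting 32 bases past the first coding exon, and 1 of the 2 GENCODE models of this gene is unspliced. The same place could not be searched in Hist1h2bc, Hist1h2bq and Hist1h2br, where only 12, 4 and 4 bases past the first coding exon were covered. Hist1h2bq and Hist1h2br have 3 GENCODE models each, of which 1 is unspliced as well. In Hist1h2be the intron of 34949 bases preceded the start codon, and this gene kept the hairpin, 30 bases after its stop codon.

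Among the variants, 7 were spliced. H2afy and H2afy2, the macroH2A genes, whose proteins carry a large extra domain after the H2A part, had 9 exons each. H2afz and H2afv, the H2A.Z genes, had 5 exons each, as did H1foo, the oocyte linker histone gene. H3f3a and H3f3b, which both encode the replacement H3, had 4 exons each. The 6 variants with 1 exon were the linker histone genes H1f0, H1fnt and H1fx and the H2A genes H2afb1, H2afj and H2afx.

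The 3 pairs of spliced variants had the same intron places in the coding part, base for base. H2afz and H2afv divided their coding bases over the exons as 3, 78, 114, 130 and 59. H3f3a and H3f3b divided theirs as 128, 154 and 126, and H2afy and H2afy2 as 172, 107, 198, 111, 100, 90, 175 and 163. The bases and residues within those equal segments differed to a degree that varied between the pairs. H3f3a and H3f3b differed at 95 of 411 coding bases (23.1%) and at 0 of 136 residues. H2afz and H2afv differed at 20.9% of bases and 3 of 128 residues, and H2afy and H2afy2 at 32.7% of bases and 123 of 372 residues.

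**Figure D1:**
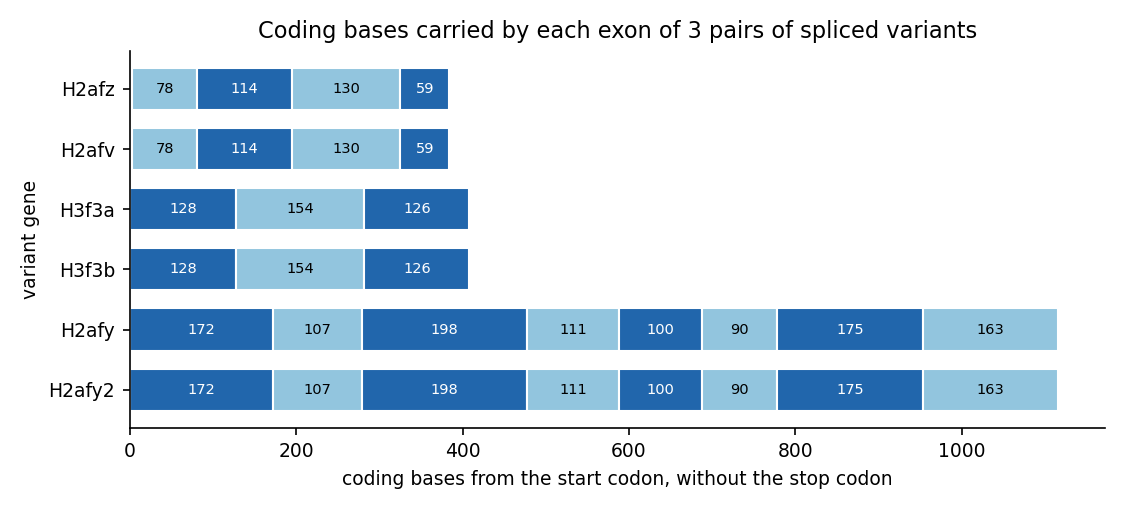
Coding bases in each exon for the 3 pairs of spliced variant genes, drawn to scale from the start codon, without the stop codon; alternating shades are successive exons, and the first exon of H2afz and H2afv holds 3 coding bases. In each pair the segments have equal lengths.

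Coding parts were short in both groups. Counting the stop codon, the clustered genes ran from 312 to 672 bases with a median of 393, the variants from 336 to 1197 with a median of 432, and all coding symbols had a median of 1218. Within the clustered genes the length followed the type: all 13 H4 genes had 312 bases, all 12 H3 genes 411, the H2A genes 387 (Hist1h2ah) to 393, and the H1 genes 630 (Hist1h1t, the testis linker histone gene) to 672 (Hist1h1b). The H2B genes ran from 381 to 465 bases, with Hist3h2bb-ps, a symbol marked as a pseudogene, as the longest. The longest variants were H1fnt, the spermatid linker histone gene, with 1197 bases, and H2afy and H2afy2 with 1119 each.

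For H3 and H4 the proteins were more alike than the genes. The 13 H4 genes encoded 1 protein from 12 distinct coding sequences, and any 2 of the 13 genes differed at 0 to 14.7% of coding bases. The 12 H3 genes encoded 2 proteins, of 8 and 4 genes, that differ at 1 of 136 residues; these lay 4 and 5 residues from the protein of H3f3a and H3f3b. The 18 H2A genes encoded 9 proteins and the 19 H2B genes 13, while no protein was shared among the 6 clustered H1 genes or among the 4 H1 variants. Stop codons also differed by type: TAA ended 12 of 12 H3 genes, 12 of 13 H4 genes and 10 of 18 H2A genes, and TGA ended 14 of 19 H2B genes.

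The third codon position was rich in G and C in the core histone genes of the clusters. The median share of G or C at the third codon position was 93.9% in H2A, 92.1% in H2B, 89.05% in H3, 84.6% in H4 and 70.9% in H1 clustered genes, against 59.4% over all coding symbols with sequence. The variants had a median of 65.15%, but they were not alike. H2afj reached 93.1%, H2afx 91% and H1fx 89.4%, all with 1 exon. The other variants with 1 exon were lower, H1f0 with 78.5%, H1fnt with 63.4% and H2afb1 with 50%. The spliced H3f3a had 44.5%, the lowest of all 81 members. The 2 genes for the same replacement H3 thus differed, since H3f3b had 70.1%.

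**Figure D2:**
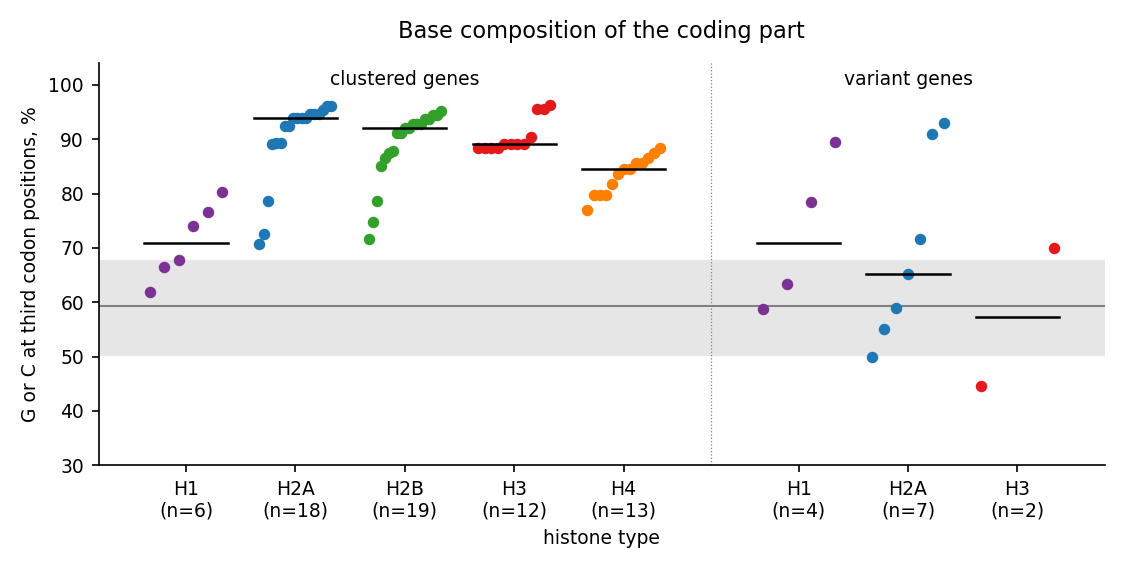
Share of G or C at the third codon position (%) for each histone gene, by type and group; each point is a gene, black lines are medians, the grey line is the median over all coding symbols (59.4%) and the grey band runs from its lower to its upper quartile. The clustered H2A, H2B, H3 and H4 genes all lie above the band, and the variants spread from 44.5 to 93.1%.

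The length of the models beyond the stop codon differed between the groups and within the clustered genes. The median was 22 bases in the clustered genes, 605 in the variants and 611 over all coding symbols. In 33 of 68 clustered genes (48.5%, exact interval 36.2 to 61%) the model had 0 bases beyond the stop codon, against 0 of 13 variants and 8.82% of all coding symbols. All 33 also began at the start codon, so these models are the coding part alone, among them the H2A genes Hist1h2ad, Hist1h2af and Hist1h2ah, the linker gene Hist1h1b, and Hist1h2aa, known as a testis H2A gene.

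Other clustered genes had long ends. A further 14 clustered models ran 1 to 100 bases past the stop codon, 10 ran over 100 and up to 500, and 11 ran over 500. The longest were Hist4h4 with 2515 bases, Hist1h1d with 2253, Hist2h2be with 2192, Hist1h2ac with 2058 and Hist1h2be with 1906. These exceed the longest variant, H3f3b, with 1446 bases. Among the variants the shortest was H1fnt with 88, and 8 of 13 were over 500.

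**Figure D3:**
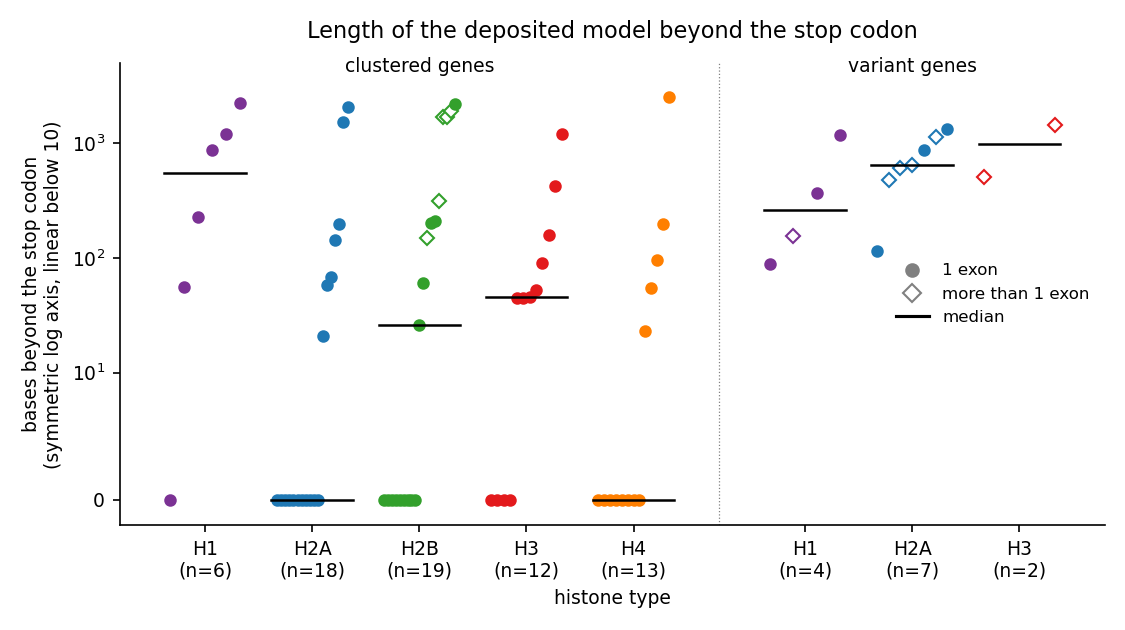
Bases of the deposited model beyond the stop codon (symmetric log axis) for each histone gene, by type and group; filled circles have 1 exon, open diamonds more than 1, and black lines are medians. The clustered genes split between 33 models at 0 and a spread up to 2515 bases, while all 13 variants lie from 88 to 1446.

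Set against the hairpin, the ends of the clustered models fell on both sides of it. The hairpin lay wholly inside the deposited model in 24 genes and wholly past its end in 23, of which 20 had models with 0 bases beyond the stop codon. Where it was inside, 5 to 2445 bases of model followed it, and more than 100 followed in 15 genes. H2afx was of this kind, with 818 bases after its hairpin. The counts are of symbols. Hist2h2aa1 and Hist2h2aa2 share a hairpin that lies inside the model of the former and past the end of the latter. Hist1h2ao and Hist1h2ap also share a hairpin, past the end of both models.

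The RefSeq gene extents on GRCm38.p6, the same assembly as mm10, placed nearly all of these ends just after the hairpin. For the 45 that could be compared, the deposited model ended from 54 bases before the last base of the hairpin to 2445 after it, and 6 ended 0 to 10 bases after. The RefSeq gene ended 0 to 10 bases after the hairpin in 43 of 45, with a median of 5. The other 2 were Hist1h3e, which ended 428 bases after, and Hist1h2be, 1861 bases after. Of the 15 deposited models that ran over 100 bases past the hairpin, 14 ended within 10 bases of it in RefSeq, among them Hist4h4 and Hist1h1d (both 5 bases after). Of the 21 that stopped short of it, 20 did. How RefSeq's ends were set is not given in the sources used here, and neither set of ends was measured in these spleens.

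**Figure D4:**
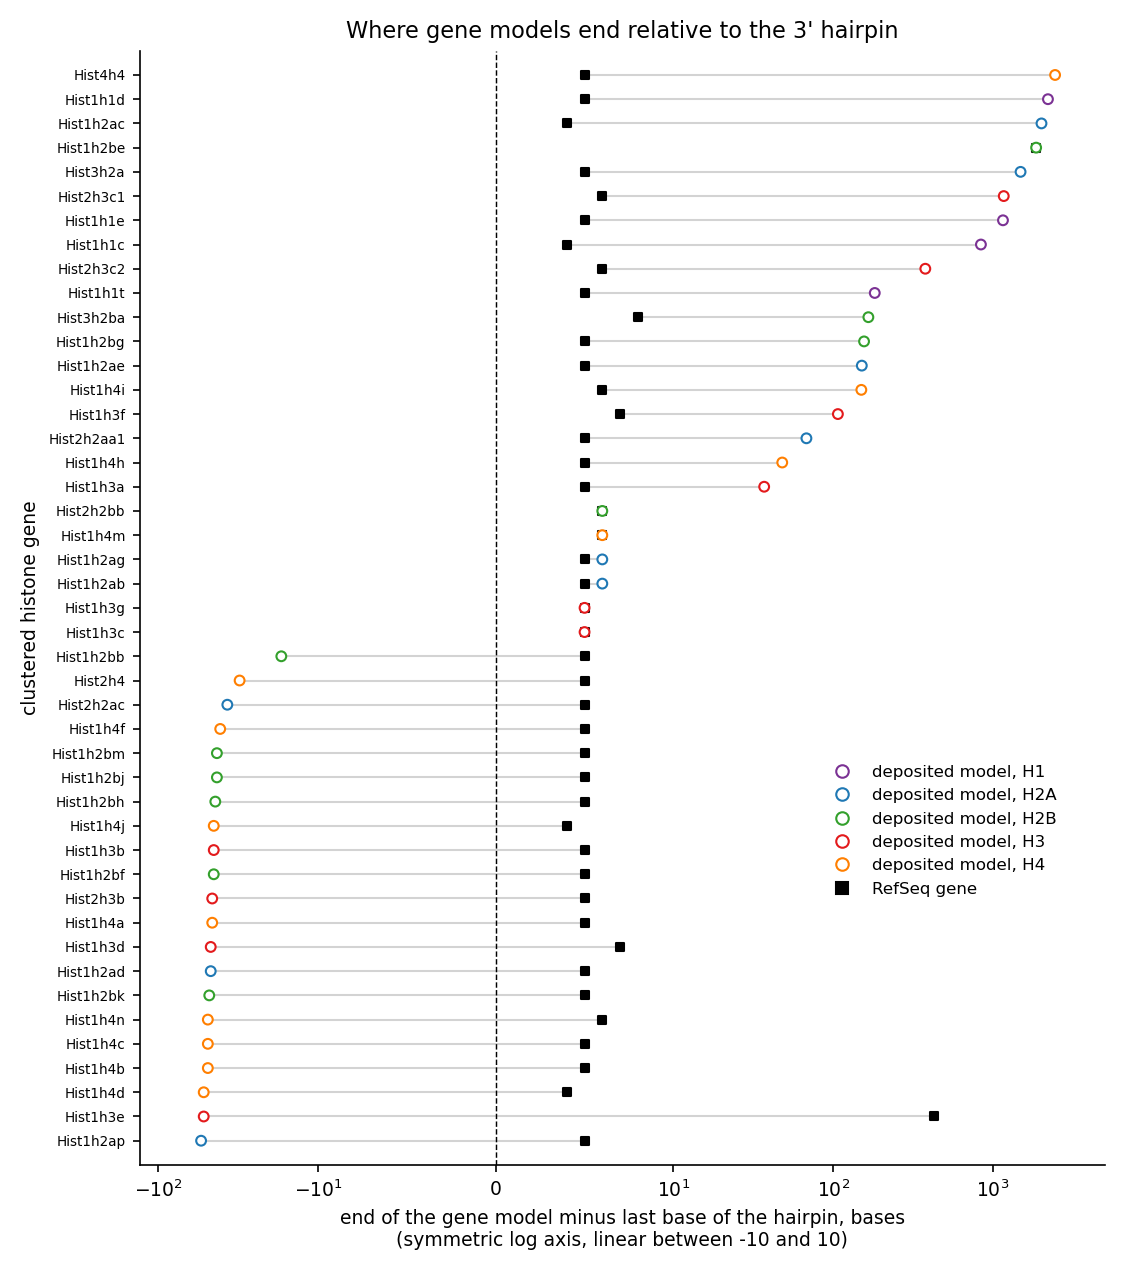
End of the gene model minus the last base of the hairpin, in bases (symmetric log axis, linear near 0), for 45 clustered genes; open circles are deposited models coloured by type, black squares are RefSeq gene ends on GRCm38.p6. Deposited ends scatter from -54 to 2445, and 43 of 45 RefSeq ends lie 0 to 10 bases after the hairpin.

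The coding-only models were likewise longer in other annotations. RefSeq gave a longer gene for 32 of the 33, by a median of 93 bases over all 33 and 500 at most, and the exception was Hist3h2bb-ps. In GENCODE M21, 20 of the 32 that could be looked up had more than 2 bases beyond the stop codon and 10 had 0 as well. RefSeq also listed all 68 clustered genes under newer symbols (Hist1h1d is H1f3 there and Hist4h4 is H4f16), and 10 of the 13 variants.

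A poly(A) signal, here AATAAA or ATTAAA within the last 40 bases of the model, was present in 15 of the 26 clustered genes that could be searched (57.7%, exact interval 36.9 to 76.6%) and in 8 of 10 variants (80%, 44.4 to 97.5%), against 74% of all coding symbols searched. Both intervals include the share over all coding symbols. With AATAAA alone the clustered share was 34.6% (17.2 to 55.7%) and the variant share 40% (12.2 to 73.8%), against 60% of all coding symbols. These intervals are no test, and the 26 count the same model of Hist1h2bq and Hist1h2br for each symbol. The 26 also include Hist1h2ab, Hist1h2ag, Hist1h3c, Hist1h3g and Hist2h2bb. Their models end 5 or 6 bases after the hairpin, and none had the signal. Of the clustered genes whose model ran over 100 bases past the hairpin, 10 of 14 searched had the signal. That share is near the 74% of all coding symbols searched. Those 10 genes, Hist4h4, Hist1h1d and Hist1h2be among them, carried both kinds of end in their sequence, the hairpin near the stop codon and a poly(A) signal at the end of the deposited model. The 4 H2B genes whose spliced model held no hairpin (Hist1h2bc, Hist1h2bp, Hist1h2bq and Hist1h2br) had the signal, as did Hist2h2be. Which end was used in spleen was not analysed here.

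On the chromosomes, neighbouring members at most 100 kb apart were joined, and 3 or more symbols made a cluster. There were 5 clusters, which held 65 of the 68 clustered genes and 0 variants. On chromosome 13, 29 genes of all 5 types, Hist1h4h to Hist1h1a, spanned 233.4 kb (chr13:23531044-23764414), 18 genes, Hist1h2bl to Hist1h2bq, spanned 121.8 kb, and 5 genes, Hist1h2ah to Hist1h2bj, 8.445 kb. A cluster of 10 genes on chromosome 3, Hist2h2ab to Hist2h2bb, spanned 50.28 kb (chr3:96219916-96270192), and 3 genes on chromosome 11, Hist3h2ba to Hist3h2a, spanned 7.764 kb. H1 genes were present in 2 clusters, both on chromosome 13.

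The clusters held almost nothing but histone genes. A single other coding symbol lay inside any of them, Hfe, the hemochromatosis gene, in the largest. Between the clusters of chromosome 13 the make-up was different: the gap of 197.6 kb after Hist1h2bq held 3 coding symbols, and the gap of 1487 kb after Hist1h2bj held 40, of which 36 were Vmn1r symbols of vomeronasal receptors. With the limit of 100 kb, Hist1h2aa and Hist1h2ba, known as testis H2A and H2B genes, formed a pair of their own on chromosome 13. The remaining clustered gene, Hist4h4, lay on chromosome 6, 3817 bases from the variant H2afj.

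The variants were scattered. They lay on 9 chromosomes, against 4 for the clustered genes. The median distance from a clustered gene to the nearest member was 579.5 bases, with 45 of 68 within 1000 bases and 67 within 10000. Of the 9 variants with another member on their chromosome, H2afj was the only one within 10000 bases, and 8 were over 1000000 bases away. H2afy shares chromosome 13 with the 3 clusters there, and its nearest member, Hist1h2aa, was 32138771 bases away.

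**Figure D5:**
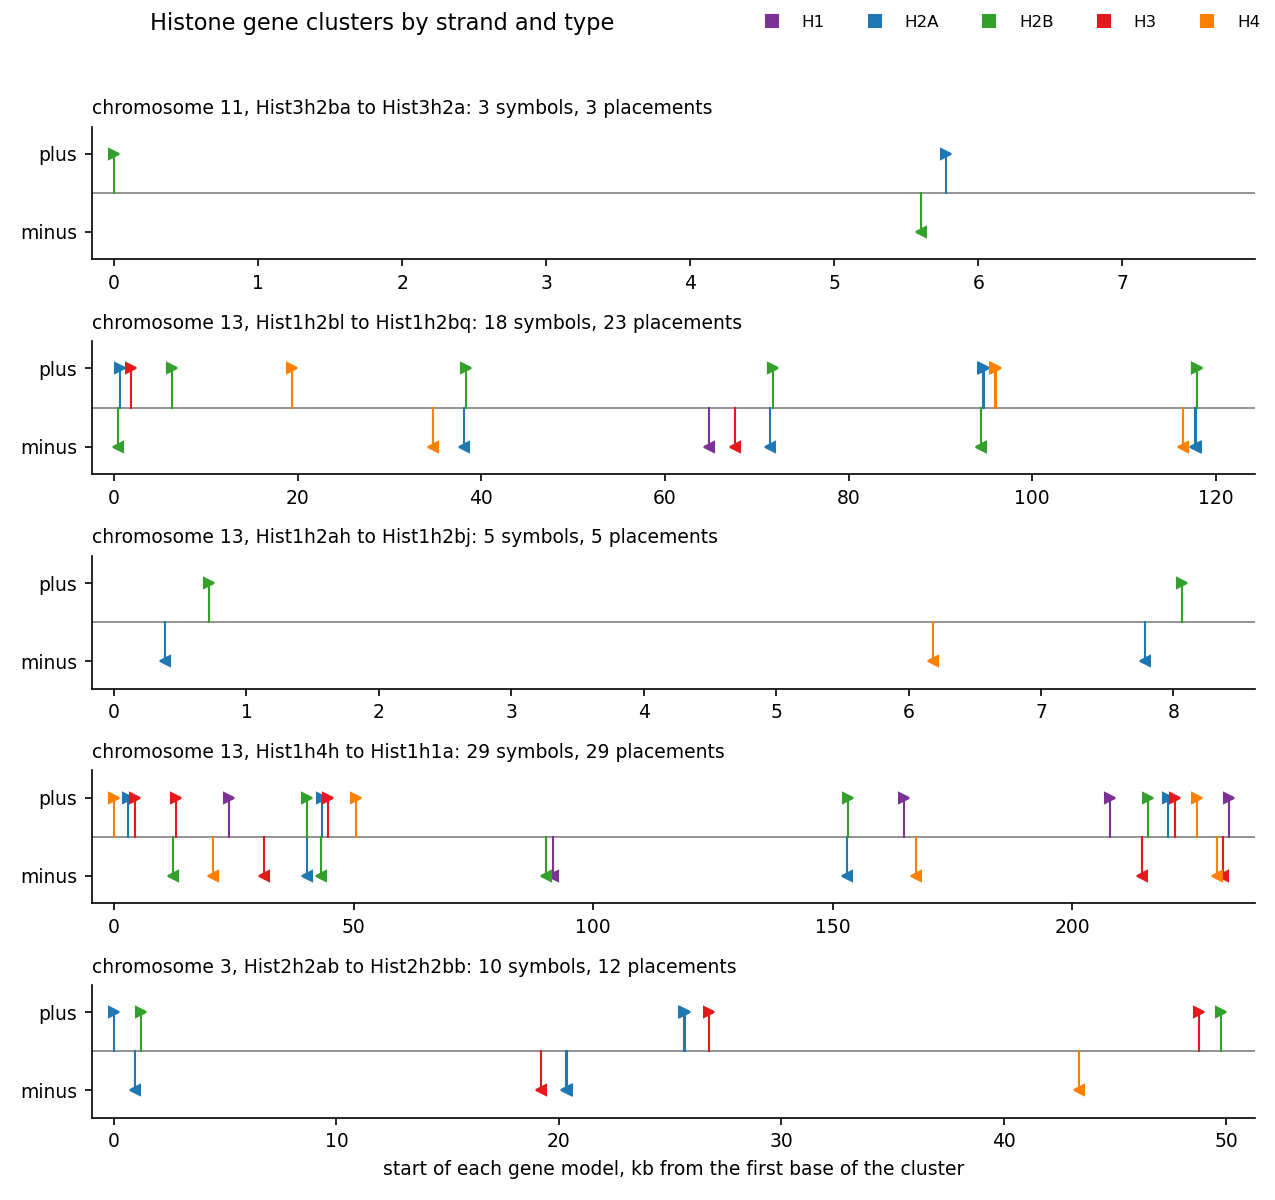
Start of each gene model in the 5 histone clusters, in kb from the first base of the cluster, on the plus (up) or minus (down) strand and coloured by type; symbols placed at more than 1 locus are drawn at each. Both strands are used in every cluster, and H2A and H2B starts often sit back to back.

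Strands were mixed in every cluster. Each symbol was counted at its first placement along the chromosome. The minus strand then held 31 of 68 clustered genes (45.6%, exact interval 33.5 to 58.1%) and 8 of 13 variants, against 50.1% of coding symbols. The 7 clustered symbols placed at more than 1 locus lie on both strands, so their strand in this count follows from that order. From 1 gene model to the next the strand changed in 16 of 28 steps in the largest cluster, 9 of 22 in the next largest on chromosome 13, 3 of 4 in the smallest there, 6 of 11 on chromosome 3 and 2 of 2 on chromosome 11. Steps run between placements, of which the next largest cluster on chromosome 13 has 23 and that on chromosome 3 has 12. Overlapping symbols on the same strand thus add steps that cannot show a change.

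Head-to-head starts, on opposite strands, facing away from each other and at most 1000 bases apart, were a feature of H2A and H2B. Of the clustered genes, 28 of 68 (41.2%, exact interval 29.4 to 53.8%) had such a partner, against 0 of 13 variants and 8.14% of all coding symbols, and every partner was itself a clustered histone gene. They made 20 pairs of symbols in 14 distinct stretches, since some symbols overlap or have several placements. In 19 pairs an H2A gene faced an H2B gene, with 168 to 335 bases between the starts and a median of 268, and these pairs took in 13 H2A and 13 H2B symbols. The other was Hist1h2bh and the H3 gene Hist1h3f, 700 bases apart. The closest were Hist1h2ao with Hist1h2bq or Hist1h2br (168 bases) and Hist3h2bb-ps with Hist3h2a (173 bases). In 5 pairs both models began at the start codon, so their distances run between coding parts. In further pairs a single model did, so those distances run from a coding part. Hist3h2bb-ps with Hist3h2a is of this kind, as are the pairs of Hist1h2ap, which lie at the median of 268 bases.

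The bases between such starts can be read from RefSeq's promoter table on GRCm38.p6. Printed here are the stretches between Hist1h2ae and Hist1h2bg (chr13:23571221-23571399) and between Hist1h2ac and Hist1h2bc (chr13:23683960-23684198), both read on the plus strand, toward the H2B gene, and the 250 bases before RefSeq's start of 2 variants, H3f3b (chr11:116024505-116024754, minus strand) and H2afz (chr3:137864237-137864486, plus strand). RefSeq's start of H2afz lies 112 bases before that of the deposited model. Capitals mark the CCAAT motif, the motif TATAAA and the octamer ATTTGCAT on either strand, and the stretches are shown as examples of the windows in which these motifs were counted.
Hist1h2ae-Hist1h2bg: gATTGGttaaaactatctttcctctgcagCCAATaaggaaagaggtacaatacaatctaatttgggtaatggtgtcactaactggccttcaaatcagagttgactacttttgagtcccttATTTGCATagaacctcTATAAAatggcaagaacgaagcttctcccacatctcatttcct
Hist1h2ac-Hist1h2bc: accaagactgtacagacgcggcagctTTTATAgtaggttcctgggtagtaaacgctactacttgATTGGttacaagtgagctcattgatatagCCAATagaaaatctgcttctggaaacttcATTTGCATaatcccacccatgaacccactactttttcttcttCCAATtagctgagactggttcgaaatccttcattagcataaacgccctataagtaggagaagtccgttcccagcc
H3f3b: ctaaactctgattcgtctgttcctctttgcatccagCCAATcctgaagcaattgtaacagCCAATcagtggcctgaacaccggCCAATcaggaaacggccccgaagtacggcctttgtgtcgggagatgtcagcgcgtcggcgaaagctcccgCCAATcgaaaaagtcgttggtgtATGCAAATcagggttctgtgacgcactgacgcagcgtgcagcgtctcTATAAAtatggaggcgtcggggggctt
H2afz: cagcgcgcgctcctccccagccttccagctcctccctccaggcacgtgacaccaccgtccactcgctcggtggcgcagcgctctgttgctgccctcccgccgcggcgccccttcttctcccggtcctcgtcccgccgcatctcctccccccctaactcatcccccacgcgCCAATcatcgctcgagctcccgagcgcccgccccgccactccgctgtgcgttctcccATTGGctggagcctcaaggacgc

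Both stretches between H2A and H2B genes held the octamer ATTTGCAT, CCAAT on both strands and TATAAA on 1 strand. H3f3b also held all 3, with 4 copies of CCAAT, while H2afz held CCAAT on both strands and neither of the others. Over windows of 300 bases (250 before and 50 after the start) a match in the table was found for 62 clustered genes, 12 variants and 16342 coding symbols. TATAAA on either strand was present in 56.5% of clustered genes, 8.33% of variants (H3f3b alone) and 13.1% of all. Kept to the gene's strand and to 16 to 45 bases before the start, it was present in 24.2%, 8.33% and 3.02%. That start is RefSeq's, and in some clustered genes, such as Hist1h2ad and Hist1h2ah, TATAAA lay after it and was not counted. CCAAT was present in 85.5%, 58.3% and 39%, and ATTTGCAT in 21%, 8.33% (again H3f3b alone) and 1.71%. These are matches of letters, not sites shown to be bound.

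Within the clustered genes the motifs followed the type. The octamer was present in 7 of 18 H2A and 6 of 16 H2B genes and in 0 of 6 H1, 0 of 10 H3 and 0 of 12 H4 genes. CCAAT was present in all H1, H2A, H2B and H3 genes with a window and in 3 of 12 H4 genes. TATAAA, on either strand and anywhere in the window, was present in 40 to 66.7% of each type. In H4 genes it began 250 (Hist1h4f), 137 (Hist1h4i), 128 (Hist1h4m) and 127 (Hist1h4n) bases before RefSeq's start. It began 32 (Hist1h4d), 16 (Hist1h4k) and 2 (Hist1h4j) bases before the start, and after it in Hist1h4a. In H3 genes it began 168 (Hist1h3d), 147 (Hist1h3i), 31 (Hist1h3h) and 29 (Hist1h3b) bases before. The count kept to a narrower place was not split by type. Windows of head-to-head genes overlap, so an H2A gene and its H2B partner can share a match.

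Near-identical copies bear on how reads of these genes could be counted. Symbols placed at 2 loci were 7 of 68 clustered genes (10.3%) and 0 variants, against 1.28% of coding symbols: Hist1h2ao, Hist1h2ap, Hist1h2bq, Hist1h2br, Hist1h4n, Hist2h2aa1 and Hist2h2aa2. Exonic bases were shared with another symbol on the same strand in 10 of 68 clustered genes (14.7%) and 0 variants, against 2.98% of coding symbols. These made 5 pairs, of which Hist1h2bq and Hist1h2br have the same model base for base. The pair Hist1h1e and Hist1h2be was of another kind: the first exon of Hist1h2be, which starts at 23621124, lay in the part of the Hist1h1e model past its hairpin. Taking 1 placement of each symbol, the 68 clustered symbols had 65 distinct stop codons. The other placement of Hist1h4n has the same coding part as Hist1h4m, which this count leaves out. An exonic overlap on the opposite strand was found in 0 of 68 clustered genes and in 1 of 13 variants, H2afy2 with Aifm2, against 7.66% of coding symbols.

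The listed genes that process histone mRNAs or load histones onto DNA were all spliced where found, as are most coding symbols. Over all coding symbols 10.4% had a single exon, and 0.576% of those searched had a hairpin. Counts of 0 in lists this short therefore do not set these genes apart. Of 16 genes for the processing of histone mRNA ends, among them Slbp (the hairpin binding protein, 8 exons), Lsm10 and Lsm11 (of the U7 particle that directs the cut, 2 and 4 exons) and Npat (a coactivator of the clustered genes, 18 exons), 0 had a single exon and 0 a hairpin after the stop codon. Their median length beyond the stop codon was 746.5 bases. Of 18 histone chaperone and exchange genes, 15 were found under the listed symbol; 0 of them had a single exon and 0 a hairpin. Cenpa, the centromeric H3 gene outside the name rule, had 5 exons and no hairpin, and Hils1, a spermatid linker histone gene, had 1 exon and no hairpin.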

How the data were processed

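The series holds RNA-seq of 16 mouse spleen samples, polyadenylated RNA per the labels. Per the submitters' processing notes the tools included TopHat2 2.0.4, with mm10 as the build; how reads were counted, where the annotation came from and whether libraries kept strand is not given in the sources used here. What the authors deposited holds other values than expression: feature positions on mm10 (1-based), with 0 columns of values for a sample, so depth is unknown, replicates could not be compared and no test was made.

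Each symbol was represented by its coding transcript with the longest coding part. Coding length counts the stop codon. Bases came from GENCODE M21 transcripts on GRCm38, the assembly of mm10, placed by their exons; 99.94% of 20462 stop codons looked up read as a stop. The hairpin search went on past the model's end where these transcripts covered the genome, and needed 16 covered bases. Gene extents and promoters are RefSeq's on GRCm38.p6, matched by transcript, symbol or synonym. Intervals are exact binomial (Clopper-Pearson, 95%). Scripts were tested on simulated models.

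Members and gene lists were chosen with earlier results of these data known. The genes named are every variant and, of the clustered genes, those with more than 1 exon, the 5 longest and 5 shortest beyond the stop codon, the 5 closest head-to-head pairs, the ends of each cluster and the longest and shortest coding part of each type. Others were named after their values were seen, to complete small counts or to show a sequence. Python 3.11.15, numpy 2.4.6, scipy 1.17.1 and matplotlib 3.10.9 were used.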

Additional observations from a re-analysis of the deposited data

How the results depend on the processing

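Most of the summary values stayed close to those reported under the alternatives tried: the shares of single-exon genes and the median coding lengths under each choice of transcript, and the hairpin count of 47 in the clustered genes under each definition of the hairpin. The share over all coding symbols did not stay: it went from 0.576% to 4.16% with 1 pair free, 5.19% with any first bases and 2.45% with a start anywhere beyond the stop codon. The other exceptions follow. Leaving out the models with 0 bases beyond the stop codon raised the median of the clustered genes from 22 to 196, because 33 of 68 values were removed. Joining members at most 20 kb apart gave 8 clusters in place of 5. With a gap of up to 500 kb there were 4 clusters, which held 67 members in place of 65. A limit of 2000 bases between starts gave 31 head-to-head pairs in place of 20. A hairpin starting anywhere beyond the stop codon was found in 2 variants in place of 1, the other being H2afj at base 143. With AATAAA as the only poly(A) signal, the counts were 9 clustered genes in place of 15 and 4 variants in place of 8. The clustered share was then 34.6%, against 60% of all coding symbols. Counting symbols that share a stop codon once (median 23 bases) and merging overlapping head-to-head pairs (14) were chosen after seeing the data. No paired analysis was possible because no sample has a value. The models limit what can be said: 15 clustered genes could not be searched for a hairpin, and with 13 variants the intervals of their shares are wide.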

Other observations

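A coding symbol outside the name rule, 1700014N06Rik on chromosome X, carried the commonest hairpin of the clustered genes letter for letter. RefSeq lists it as H2bfm, a symbol of the H2B family. It had 1 exon, 675 coding bases and 335 bases beyond the stop codon, and its hairpin began at base 33, within the 22 to 59 seen in the clustered genes, with 287 bases of model after it. It was named after its value was seen.
1700014N06Rik: ccaaaGGCTCTtttcAGAGCCaccac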
